A study of Mus musculus with 24 samples.

Results

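The comparison described here is that of cardiomyocytes exposed to an adeno-associated virus (AAV) carrying a guide RNA against Myocd with cardiomyocytes exposed to an AAV carrying Cre, over 2 Mrtf genotypes at once. All 24 libraries of the series enter it: 12 with the Myocd guide virus (MKO 1 to 6 and TKO 1 to 6) and 12 with the Cre virus (Ctrl 1 to 6 and DKO 1 to 6). MKO and Ctrl mice were labelled Rosa-Cas9/Cas9, TKO and DKO mice Mrfta-/-; Mrtfb-F/F; Rosa-Cas9/Cas9. All 4 groups thus carried the Cas9 transgene, whose product cuts DNA where a guide RNA leads it. Virus was given on postnatal day 1 and cardiomyocytes were collected at 4 weeks of age, by perfusing the heart with enzyme and sorting the cells. Nothing in the labels says whether the guide virus also carries Cre, which the floxed Mrtfb allele of TKO mice would need for deletion, and no group received a guide RNA against another locus. Loss of Myocd, cutting by Cas9 and the presence or absence of Cre can therefore not be told apart within this comparison. The labels do not name the promoter that drives either cargo, nor state how many animals stand behind the 6 libraries of each group. The p-values below thus measure variation among libraries, which may be partly technical.

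Myocardin, the product of Myocd, is a transcriptional coactivator of the heart and of smooth muscle that reaches its target genes by binding the transcription factor SRF (serum response factor). Its relatives MRTF-A and MRTF-B, listed under their older symbols Mkl1 and Mkl2, bind SRF in the same way and are held in the cytoplasm by monomeric actin. SRF recognises a short motif known as the CArG box, which is found near many genes of the actin cytoskeleton and of the muscle contractile apparatus.

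The summed counts per library were 9731621 to 17184517 with the guide virus (mean 11758592 ± 2015582, SD, n = 12) and 5830185 to 12157279 with the Cre virus (9883974 ± 1955756, SD, n = 12), a difference of 1874617 counts (permutation test, 100000 resamples, 2-sided p = 0.025). Of 23337 genes in the count table, 12281 had enough counts to be tested. Library sex, read from Xist and Y-linked counts, was male in 7 and female in 5 guide virus libraries, and male in 5 and female in 7 Cre virus libraries. MKO and Ctrl each had 4 male and 2 female libraries. The mutant groups were less alike, with 3 male and 3 female TKO libraries and 1 male (DKO 1) and 5 female DKO libraries. Markers of cardiomyocytes summed to 77000 to 107000 CPM (counts scaled to a common library size) with the guide virus and to 69300 (DKO 1) to 127000 CPM with the Cre virus. The median sum was 98300 CPM in MKO and 119000 CPM in Ctrl libraries, and 83400 CPM in TKO and 92400 CPM in DKO libraries. It was thus lower with the guide virus in both genotypes, with overlap, and none of these markers was called by edgeR. At an unadjusted p under 0.05 edgeR found 2 of the 7 markers lower and 1 higher, and DESeq2 and voom each called 1 lower. The 4 haemoglobin genes were at 0 in all 24 libraries. Fibroblast markers summed to 229 to 997 CPM with the guide virus and 76.3 to 640 CPM with the Cre virus, endothelial markers to 118 to 1020 CPM and 113 to 1200 CPM, and leukocyte markers to 7.1 to 29.5 CPM and 5.35 to 14.8 CPM. The atrial markers summed to 97.3 to 3940 CPM with the guide virus and 16.3 to 584 CPM with the Cre virus, most of it Nppa, which ventricular cells also make under load. The sums were 97.3 to 214 CPM in MKO libraries and 117 to 3940 CPM in TKO libraries. In contrast to the sums, 4 of the 5 atrial genes had a negative log2 ratio of guide virus to Cre virus. The median ratio was -1.97, with -2.04 between MKO and Ctrl and -1.13 between TKO and DKO. Without DKO 1 and Ctrl 3 the median over both genotypes was -1.13. None of the 5 atrial genes was called over both genotypes by edgeR (3 lower at an unadjusted p under 0.05, 2 lower by DESeq2 and 0 by voom). Library DKO 1, the shallowest, stood apart in several of the genes below and Ctrl 3 was left out with it in a fit of 22 libraries. Named genes that lost their call with this removal, and many list medians that moved, are given beside the result or at the end. Changes in the number of called genes per list are given only for some lists.

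Transcript levels of the targeted gene and its partners were read first. Myocd ranged from 120 to 187 CPM in MKO libraries (median 140) and from 153 to 234 CPM in Ctrl libraries (median 182). It ranged from 175 to 323 CPM in TKO libraries (median 230) and from 175 to 242 CPM in DKO libraries (median 206). The virus groups overlapped in both genotypes, with MKO lower than Ctrl on average and TKO higher than DKO. The log2 ratio of guide virus to Cre virus over both genotypes was -0.07 ± 0.11 (SE, adjusted p = 0.787, edgeR quasi-likelihood test), made of -0.37 ± 0.13 between MKO and Ctrl and 0.23 ± 0.13 between TKO and DKO. The adjusted p of the difference between these 2 ratios was 0.171 in the same test. A count over the whole gene does not show whether the guide site was cut.

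Mkl1 had 1.33 to 2.66 CPM in TKO libraries (median 2.35) and 1.4 to 2.77 CPM in DKO libraries (median 1.96), against 6.39 to 11.9 CPM in MKO libraries (median 10.3) and 4.81 to 11.3 CPM in Ctrl libraries (median 7.55). Mkl2 had 27.5 to 42.5 CPM in TKO libraries (median 37.4), 26.6 to 39.3 CPM in DKO libraries (median 32.9), 44.1 to 59.2 CPM in MKO libraries (median 51.4) and 44.8 to 55.9 CPM in Ctrl libraries (median 48.8). Both genes were lower on average in the mutant genotype under either virus, and neither was called between viruses (log2 ratios 0.22 ± 0.14 for Mkl1 and 0.08 ± 0.07 for Mkl2). Srf, which codes for the partner of these coactivators, had 72.8 to 114 CPM in MKO libraries (median 83.4) and 69.4 to 96.6 CPM in Ctrl libraries (median 81), but 38.3 to 50.9 CPM in TKO libraries (median 42.4) and 52 to 105 CPM in DKO libraries (median 59.7). All 6 TKO libraries lay below all 6 DKO libraries, of which DKO 1 was the highest. The log2 ratio for Srf over both genotypes was -0.25 ± 0.12 (edgeR adjusted p = 0.256), from 0.10 ± 0.14 between MKO and Ctrl and -0.61 ± 0.14 between TKO and DKO. The difference between genotypes was not called (adjusted p = 0.13). Over the 24 fits that each left out 1 library the pooled ratio of Srf lay between -0.32 and -0.15, and without DKO 1 and Ctrl 3 it was -0.15.

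A gene is called here when its adjusted p for the virus term, with genotype as a covariate, lies under 0.05 over all genes tested. Of 12281 genes, 412 were called (3.35%), 284 higher (2.31%) and 128 lower (1.04%) with the guide virus. Of these, 406 had log2 ratios of the same sign between MKO and Ctrl as between TKO and DKO, 278 of them higher and 128 lower, whereas over all genes tested 58.8% had the same sign. The call itself favours genes of the same sign, so that share is a description. An unadjusted p under 0.05 for the virus term was reached by 19.7% of all genes, 10.2% higher and 9.52% lower, which is the background for the unadjusted counts of the gene lists below. DESeq2 and voom called more genes than edgeR, so the 3.35% is not the background for their list counts. Over all genes DESeq2 called 756 (444 higher, 312 lower) and voom with quality weights 869 (551 higher, 318 lower). The changes were modest: 100 of the 278 rises and 28 of the 128 falls reached 1.5-fold, and 27 rises and 6 falls reached 2-fold.

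The 2 genotypes did not contribute equally. No gene was called between MKO and Ctrl alone (0 of 12281 by edgeR, smallest adjusted p 0.414, with 762 genes or 6.2% at an unadjusted p under 0.05), and 784 were called between TKO and DKO (6.38%), 511 higher (4.16%) and 273 lower (2.22%). Between MKO and Ctrl, DESeq2 called 1 gene and limma's voom 3, and the authors' deposited tables list 15 genes with an adjusted p under 0.05 for MKO over Ctrl and 1519 for TKO over DKO. Among the 278 shared rises the median log2 ratio was 0.26 between MKO and Ctrl and 0.65 between TKO and DKO, and 257 were larger in the mutant genotype. Among the 128 shared falls the medians were -0.28 between MKO and Ctrl and -0.47 between TKO and DKO, and 110 were larger in the mutant genotype. An unadjusted p under 0.05 in each genotype was reached by 93 of the shared rises and 75 of the shared falls. A further 182 rises and 51 falls reached it in the mutant genotype only, and 3 rises and 2 falls in the intact genotype only. The difference between the genotypes was itself called for 57 genes over the table (0.464%), 31 of them among the 412. The difference was positive in 49 of the 57 (0.399%) and negative in 8 (0.0651%).

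**Figure D1:**
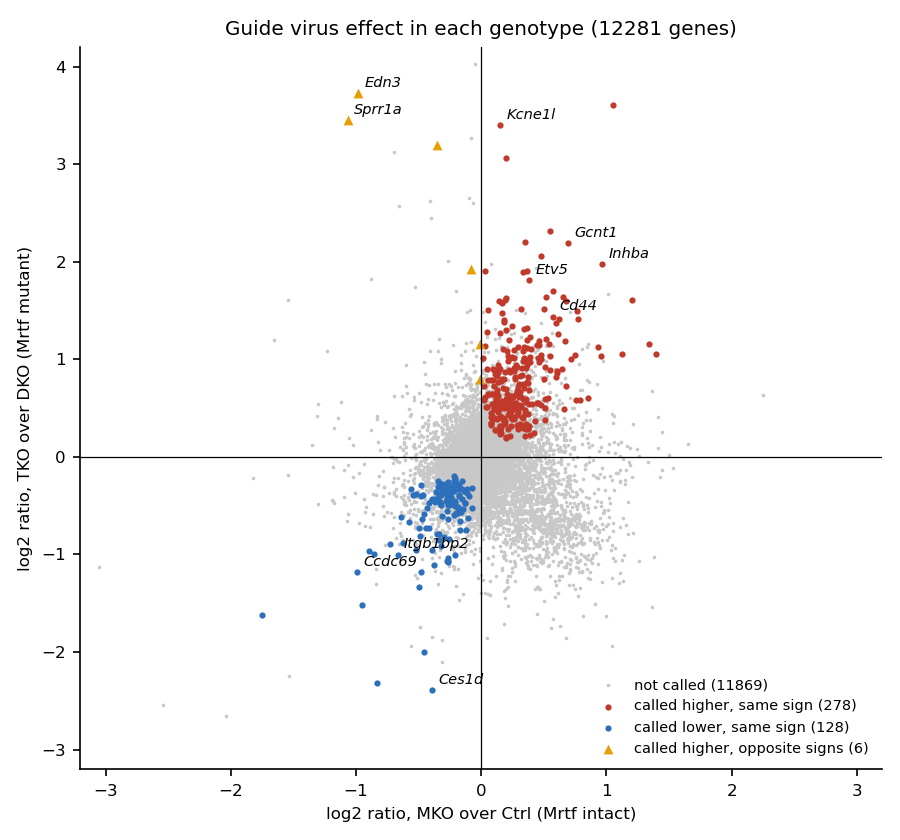
Log2 ratio of guide virus to Cre virus for each of 12281 genes, MKO over Ctrl on the horizontal axis and TKO over DKO on the vertical axis. The 278 called rises of the same sign fill the upper right and the 128 called falls the lower left, most of them further from 0 on the vertical axis, while 6 called genes lie in the upper left.

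MKO over Ctrl and TKO over DKO share no library, so the direction of genes chosen in one can be read in the other. Both came from a fit with a common estimate of each gene's spread over all 24 libraries. A low estimate favours a low p in both, so the shares at an unadjusted p are a description and not an independent reading. Of 511 genes called higher between TKO and DKO, 404 (79.1%) were also higher between MKO and Ctrl, against 50% of all genes, and 60 (11.7%) were so at an unadjusted p under 0.05, against 3.59% of all genes. Of 273 genes called lower between TKO and DKO, 203 (74.4%) were also lower between MKO and Ctrl, and 31 (11.4%) were so at an unadjusted p under 0.05, against 2.61% of all genes. The opposite sign at an unadjusted p under 0.05 in MKO over Ctrl was found in 3 of the 511 and 8 of the 273. In MKO over Ctrl the median log2 ratio was 0.12 for the 511 genes and -0.11 for the 273 genes, against 0.62 and -0.59 in TKO over DKO. Over all genes the log2 ratios of the 2 genotypes were nearly unrelated (Pearson r = -0.02 and Spearman rho = 0.11 across genes, which are not independent replicates). In the fit of 22 libraries, 74.6% of 803 genes called higher between TKO and DKO were also higher between MKO and Ctrl, against 47.6% of all genes, and 53.4% of 436 called lower were also lower, against 52.4% of all genes. The share of falls thus lay near that of all genes without DKO 1 and Ctrl 3. At an unadjusted p under 0.05 in MKO over Ctrl the shares in that fit were 9.46% of the rises, against 2.72% of all genes, and 13.3% of the falls, against 4.14%.

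The falls with the smallest adjusted p among the largest were those of Ccdc69, Itgb1bp2 and Kcnip2. Ccdc69, which codes for a coiled-coil protein known from the central spindle of human cells (mm10 chromosome 11, 55049738 to 55078131), had 15 to 23.1 CPM in MKO libraries (median 18.2) and 26.5 to 49.5 CPM in Ctrl libraries (median 33.2). It had 7.13 to 21.6 CPM in TKO libraries (median 12.1) and 26.2 to 38.8 CPM in DKO libraries (median 32.5). All 12 guide virus libraries lay below all 12 Cre virus libraries. The log2 ratio was -1.08 ± 0.15 (edgeR adjusted p = 0.000659), -0.99 between MKO and Ctrl and -1.18 between TKO and DKO.

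Itgb1bp2 codes for melusin, a muscle protein that binds the cytoplasmic tail of beta-1 integrin and takes part in the heart's response to load (chromosome X, 101449109 to 101453541). It had 141 to 252 CPM in MKO libraries (median 210) and 280 to 395 CPM in Ctrl libraries (median 326), with 129 to 222 CPM in TKO libraries (median 151) and 270 to 535 CPM in DKO libraries (median 298). Here too all 12 guide virus libraries lay below all 12 Cre virus libraries, and the log2 ratio was -0.83 ± 0.12 (edgeR adjusted p = 0.000903). Ccdc69 and Itgb1bp2 were the only genes of 12281 (0.0163%) to separate all libraries downwards, and 1 gene, Ptpra, did so upwards (0.00814%).

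Kcnip2 codes for KChIP2, the subunit that carries Kv4 channels to the membrane for the transient outward potassium current (chromosome 19, 45793670 to 45815803). It had 63.8 to 85.1 CPM in MKO libraries (median 68) and 87.7 to 116 CPM in Ctrl libraries (median 101), and 16.4 to 46.6 CPM in TKO libraries (median 29.9) against 53.3 to 72.9 CPM in DKO libraries (median 55.8). The virus groups did not overlap within either genotype, while MKO libraries overlapped DKO libraries. The log2 ratio was -0.73 ± 0.12 (edgeR adjusted p = 0.00212).

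**Figure D2:**
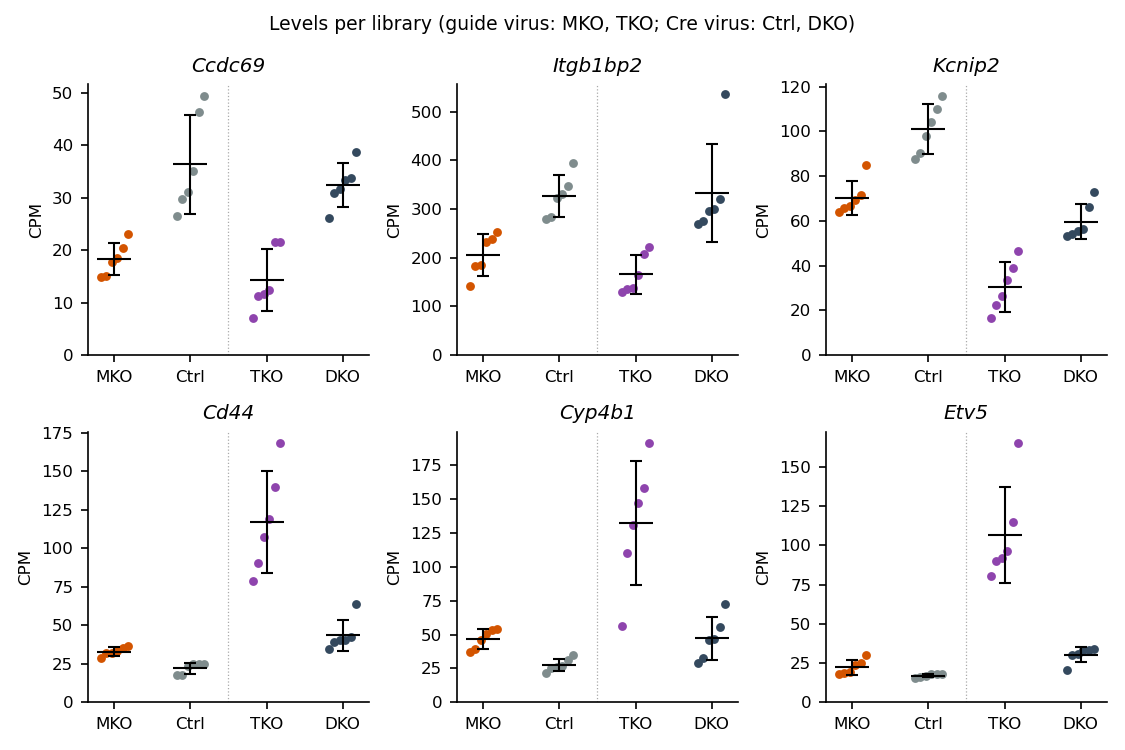
Levels in CPM of 3 genes lower and 3 genes higher with the guide virus, 1 point per library, with group mean and SD (6 libraries each). Ccdc69, Itgb1bp2 and Kcnip2 lie lower in MKO than in Ctrl and lower in TKO than in DKO without overlap, and Cd44, Cyp4b1 and Etv5 reach their highest levels in TKO.

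The other large falls included genes of contraction and energy transfer. Ckm, the muscle creatine kinase, averaged 3170 ± 299 CPM in MKO and 3820 ± 399 CPM in Ctrl libraries, and 1240 ± 519 CPM in TKO and 2600 ± 785 CPM in DKO libraries (SD, n = 6 each; log2 ratio -0.67 ± 0.16, edgeR adjusted p = 0.024). Tnnc1, the calcium-binding troponin C of the heart, averaged 1890 ± 143 CPM in MKO and 2560 ± 400 CPM in Ctrl libraries, and 1370 ± 523 CPM in TKO and 2270 ± 708 CPM in DKO libraries (log2 ratio -0.59 ± 0.14, adjusted p = 0.023). Csrp2, a LIM-domain protein of the actin cytoskeleton (log2 ratio -0.67 ± 0.13), Asb14, a substrate receptor of ubiquitin ligases expressed in muscle (-0.65 ± 0.12), and Naprt1, an enzyme of NAD synthesis from nicotinic acid (-0.59 ± 0.12), fell as well, with adjusted p of 0.00576, 0.0058 and 0.00917 by edgeR. These 5 genes, with the 3 above, were called in all 24 fits that each left out 1 library.

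The remaining 4 of the 12 largest falls depended on single libraries. Ces1d, a carboxylesterase that hydrolyses triglyceride, had the most negative log2 ratio of the 12 (-1.33 ± 0.34, edgeR adjusted p = 0.0291) and was not called without TKO 1, TKO 4 or TKO 6 (adjusted p up to 0.0584). Close Ces1 paralogs can share its reads. Wnk2, a kinase that regulates ion transport, was not called without DKO 2, TKO 1, TKO 4 or TKO 6 (log2 ratio -0.66, adjusted p up to 0.0557). Ybx2, an RNA-binding protein best known in germ cells, was lost in 9 such fits (without Ctrl 1, Ctrl 3, MKO 6, DKO 2, DKO 4, DKO 5, TKO 1, TKO 4 or TKO 5, adjusted p up to 0.0621). Cenpf, a kinetochore protein that also binds microtubules in muscle, was lost in 12 (without MKO 5, MKO 6, DKO 2 to DKO 6, TKO 1 to TKO 4 or TKO 6, adjusted p up to 0.0731).

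The rises with the smallest adjusted p among the 12 largest were Cd44, Cyp4b1 and Etv5. Cd44, the cell-surface receptor for hyaluronan (chromosome 2, 102811142 to 102901665), had 28.8 to 36.5 CPM in MKO libraries (median 32.5) and 17.5 to 24.9 CPM in Ctrl libraries (median 24). It had 78.6 to 168 CPM in TKO libraries (median 113) and 34.5 to 63.7 CPM in DKO libraries (median 40.4). Guide virus libraries lay above Cre virus libraries in each genotype without overlap, and the log2 ratio was 1.02 ± 0.14 (edgeR adjusted p = 0.000659). Cd44 is also made by fibroblasts and leukocytes, whose markers had median log2 ratios of 0.78 for fibroblast and 1.06 for leukocyte markers between MKO and Ctrl, and -0.65 and 0.03 between TKO and DKO. The part of these cells in the level of Cd44 was not tested.

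Cyp4b1, a cytochrome P450 that oxidises fatty acids and foreign compounds (chromosome 4, 115624728 to 115647705), had 37.4 to 54.3 CPM in MKO libraries (median 48.2) and 21.5 to 34.9 CPM in Ctrl libraries (median 26.3), and 56.5 to 191 CPM in TKO libraries (median 139) against 29.4 to 72.5 CPM in DKO libraries (median 46.5). MKO and Ctrl did not overlap, whereas TKO and DKO did. The log2 ratio was 1.13 ± 0.17 (edgeR adjusted p = 0.00104), 0.76 between MKO and Ctrl and 1.49 between TKO and DKO, with an adjusted p of 0.323 for the difference.

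Etv5, a transcription factor of the PEA3 group of ETS proteins, whose transcription rises with fibroblast growth factor and ERK signalling (chromosome 16, 22381313 to 22439570), had 18.1 to 30 CPM in MKO libraries (median 21.4) and 15.8 to 18.3 CPM in Ctrl libraries (median 17.4). It had 80.8 to 165 CPM in TKO libraries (median 94.2) and 20.9 to 34.2 CPM in DKO libraries (median 32). MKO and Ctrl overlapped, and TKO lay above DKO throughout. Its log2 ratio over both genotypes was 1.12 ± 0.18 (edgeR adjusted p = 0.00176), but the rise differed between genotypes, at 0.38 between MKO and Ctrl and 1.81 between TKO and DKO (adjusted p of the difference 0.00171).

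The other 9 of the 12 largest rises included signalling, secreted and transport proteins, and all 9 were called in all 24 fits that left out 1 library. Gcnt1, a glycosyltransferase that builds branched O-glycans, had the largest log2 ratio of the 12, at 1.47 ± 0.29 (edgeR adjusted p = 0.00674). It averaged 5.66 ± 1.47 CPM in MKO and 3.49 ± 2.27 CPM in Ctrl libraries, and 16.1 ± 6.36 CPM in TKO and 3.42 ± 1.86 CPM in DKO libraries (SD, n = 6 each). Slit3, a secreted guidance ligand of Robo receptors, had a log2 ratio of 1.29 ± 0.29 (adjusted p = 0.0154 by edgeR), and Gnao1, the Go alpha subunit of heterotrimeric G proteins, 1.19 ± 0.20 (adjusted p = 0.00195). Ptk2b, the calcium-responsive kinase PYK2 related to focal adhesion kinase, rose by 1.16 ± 0.27 on the log2 scale, and Slc6a6, the taurine transporter, by 0.92 ± 0.20. Between MKO and Ctrl the log2 ratios were 0.48 for Slit3, 0.33 for Gnao1, 0.37 for Ptk2b and 0.32 for Slc6a6. Between TKO and DKO they were 2.05, 1.89, 1.9 and 1.51 in the same order. The difference between genotypes was called for Gnao1 (edgeR adjusted p = 0.00161) and not for the others.

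Genes of plasma proteins were among these rises too. Cp, which codes for ceruloplasmin, a copper-carrying ferroxidase, averaged 21 ± 2.26 CPM in MKO and 14.8 ± 2.94 CPM in Ctrl libraries, and 81.3 ± 32.1 CPM in TKO and 28.6 ± 10.3 CPM in DKO libraries (SD, n = 6 each), with no overlap in either genotype and a log2 ratio of 1.03 ± 0.19 (edgeR adjusted p = 0.00435). Masp1, a serine protease of the lectin complement pathway, averaged 15.9 ± 2.41 CPM in MKO and 13.9 ± 1.84 CPM in Ctrl libraries, and 48.5 ± 5.92 CPM in TKO and 15.9 ± 2.69 CPM in DKO libraries. Its log2 ratio over both genotypes was 0.92 ± 0.17, and the difference between genotypes had the smallest adjusted p of the genes named by this contrast (0.000205). Fstl4, a secreted follistatin-like protein, and Slc22a17, a receptor for lipocalin 2, rose by 0.87 ± 0.17 and 0.86 ± 0.16 on the log2 scale.

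The 12 named rises and 12 named falls were the largest among called genes with at least 10 CPM in the higher virus group and at least 5 of 6 guide virus libraries beyond the Cre virus mean in each genotype. Leaving the genotype out of the model ended the calls of Gnao1, Cp, Cd44, Ces1d, Kcnip2, Ckm, Wnk2, Cenpf, Naprt1, Tnnc1 and Ybx2 and kept those of the other 13. The call of Cenpf also ended with the replicate number as a block or sex as a covariate, and that of Ybx2 with all libraries thinned to one depth.

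**Figure D3:**
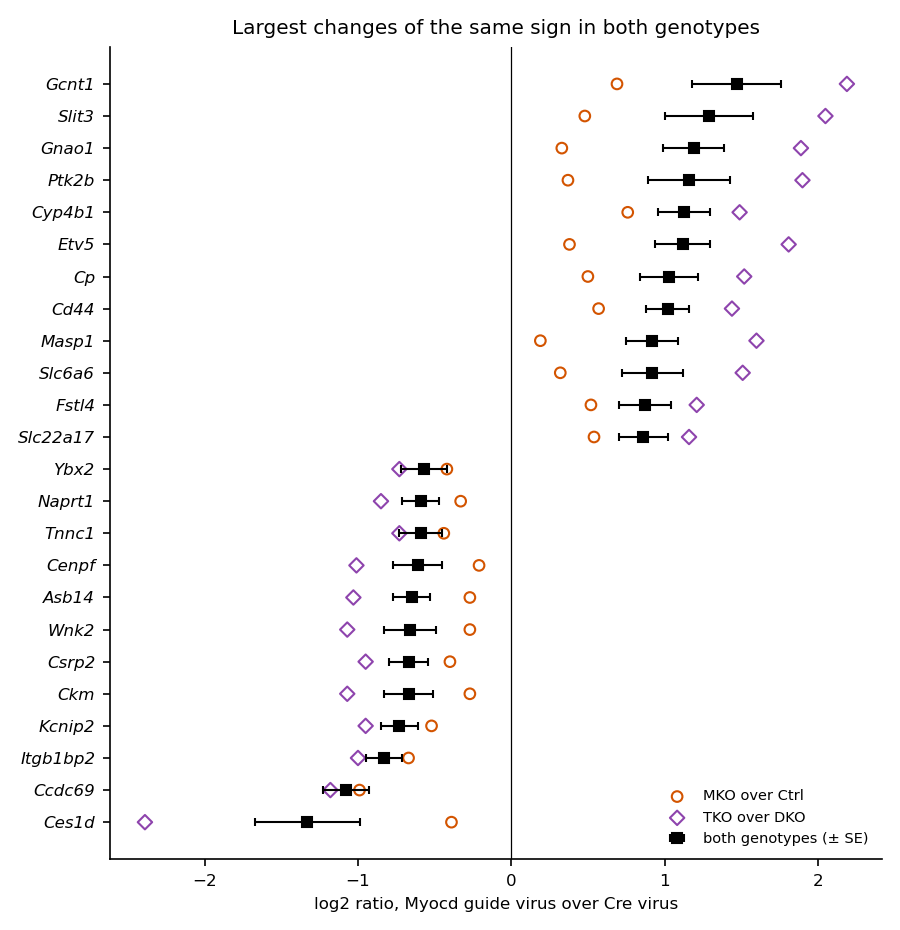
Log2 ratios of guide virus to Cre virus for the 12 largest rises and the 12 largest falls, over both genotypes with the SE (squares) and for MKO over Ctrl (circles) and TKO over DKO (diamonds). Every square lies between its circle and its diamond, and the diamond is the farther from 0 in all 24 genes.

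Separation within each genotype was rare. All 6 MKO libraries lay above all 6 Ctrl libraries in 0.318% of genes and below them in 0.269%, and all 6 TKO libraries lay above all 6 DKO libraries in 2.55% and below them in 0.977%. In 12 genes (0.0977% of those tested) the 6 MKO libraries lay wholly to one side of the 6 Ctrl libraries and the 6 TKO libraries to the same side of the 6 DKO libraries: Ccdc69, Itgb1bp2 and Kcnip2 below, and Cd44, Cp, Ptpra, Sdc2, Arf3, Dpysl3, Tmem43, Prss23 and Tbc1d8b above. Ptpra, a receptor-type tyrosine phosphatase that activates Src kinases, had 57.2 to 63.8 CPM in MKO libraries (median 59.2) and 41.4 to 54.9 CPM in Ctrl libraries (median 48.6), and 60.2 to 88.1 CPM in TKO libraries (median 77.8) and 41.9 to 56.9 CPM in DKO libraries (median 52.6). Its log2 ratio was a small 0.42 ± 0.07 (edgeR adjusted p = 0.00176). Tbc1d8b, which has the domain of Rab GTPase-activating proteins, had one of the few larger ratios in the intact genotype, 0.76 between MKO and Ctrl against 0.58 between TKO and DKO. It averaged 4.68 ± 0.755 CPM in MKO and 2.75 ± 0.401 CPM in Ctrl libraries, and 4.83 ± 0.67 CPM in TKO and 3.2 ± 0.518 CPM in DKO libraries (SD, n = 6 each).

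Sdc2, a transmembrane heparan sulfate proteoglycan, rose by 0.47 ± 0.08 on the log2 scale, and Arf3, a small GTPase of the Golgi, by 0.53 ± 0.10. Dpysl3, a collapsin response mediator that binds actin and microtubules, rose by 0.73 ± 0.12, and Prss23, a secreted serine protease, by 0.82 ± 0.12. Tmem43, a nuclear envelope protein whose mutation causes an arrhythmogenic cardiomyopathy, averaged 40.6 ± 2.4 CPM in MKO and 35.3 ± 1.92 CPM in Ctrl libraries, and 58.9 ± 7.29 CPM in TKO and 41.1 ± 5.78 CPM in DKO libraries (SD, n = 6 each; log2 ratio 0.36 ± 0.07). All 12 genes were called in every fit that left out 1 library. In the fit of 22 libraries, 14 genes separated in this way, 10 above and 4 below.

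Of 39 actin and SRF target genes of the cytoskeleton tested, 4 (10.3%, against 3.35% of all genes) were called higher and 0 lower by edgeR (8 higher and 4 lower at an unadjusted p under 0.05, 5 higher and 2 lower by DESeq2, 4 higher and 1 lower by voom). The median log2 ratio was 0.10, against -0.02 over all genes. It was 0.12 between MKO and Ctrl but -0.02 between TKO and DKO. The same sign in both genotypes was found in 19 of the 39, against 58.8% of all genes. Zyx, the focal adhesion and stress fibre protein zyxin, averaged 119 ± 21.8 CPM in MKO and 99.1 ± 24.6 CPM in Ctrl libraries, and 193 ± 24.7 CPM in TKO and 103 ± 20.1 CPM in DKO libraries (SD, n = 6 each). Its log2 ratio was 0.59 ± 0.12 (edgeR adjusted p = 0.01), and it was called in all 24 fits that left out 1 library. Fhl1, a LIM-domain protein of the sarcomere, was also called (0.58 ± 0.15, adjusted p = 0.0327) but had a log2 ratio of 0.03 between MKO and Ctrl and 1.13 between TKO and DKO, and its call was lost in 10 of those 24 fits. The calls of Gsn and Cfl1, which sever actin filaments, had adjusted p of 0.0445 and 0.0486, and were kept in 5 and 3 of the 24 fits. Tagln, a smooth muscle gene of the list that vessel cells express, had log2 ratios of opposite sign, 0.60 between MKO and Ctrl and -0.56 between TKO and DKO.

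The CArG box was searched as 2 C, 6 bases that are each A or T, and 2 G, a motif that reads alike on both strands, in the 250 bases before each transcript start that RefSeq gives for a gene on GRCm38.p6. It was present before 2 of 208 called rises of the same sign that had an upstream sequence (0.962%), before 2 of 83 called falls (2.41%) and before 126 of 8790 genes tested (1.43%). The 4 sequences are printed because this is the motif through which myocardin acts. The capitals mark the box, and each runs 5′ to 3′ on the strand of its gene.
Slc25a23, chr17:57059864-57060113, minus strand: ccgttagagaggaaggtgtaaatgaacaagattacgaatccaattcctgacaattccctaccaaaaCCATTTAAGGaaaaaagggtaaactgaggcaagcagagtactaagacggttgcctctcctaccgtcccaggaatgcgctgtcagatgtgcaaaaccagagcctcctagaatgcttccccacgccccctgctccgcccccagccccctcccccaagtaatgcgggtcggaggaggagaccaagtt
Fhl1, chrX:56779433-56779682, plus strand: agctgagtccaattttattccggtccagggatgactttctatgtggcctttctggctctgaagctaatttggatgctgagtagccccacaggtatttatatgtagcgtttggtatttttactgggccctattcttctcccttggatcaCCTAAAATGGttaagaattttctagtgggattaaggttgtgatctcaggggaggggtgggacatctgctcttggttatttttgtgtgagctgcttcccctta
Myl3, chr9:110763428-110763677, plus strand: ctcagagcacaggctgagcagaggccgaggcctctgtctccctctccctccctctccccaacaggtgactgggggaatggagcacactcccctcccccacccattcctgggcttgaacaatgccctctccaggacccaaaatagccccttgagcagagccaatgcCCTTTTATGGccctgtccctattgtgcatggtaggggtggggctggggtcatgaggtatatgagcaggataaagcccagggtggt
Hook2, chr8:84990373-84990622, plus strand: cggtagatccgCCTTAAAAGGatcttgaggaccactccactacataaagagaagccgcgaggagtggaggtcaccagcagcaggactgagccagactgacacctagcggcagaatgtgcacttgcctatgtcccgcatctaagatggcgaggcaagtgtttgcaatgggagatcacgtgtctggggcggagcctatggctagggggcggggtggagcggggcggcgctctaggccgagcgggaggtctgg

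The boxes began 184 bases before the transcript start in Slc25a23, 102 in Fhl1, 85 in Myl3 and 239 in Hook2. The start in Fhl1 is an internal one, as the gene runs from 56731787 to 56793346 on chromosome X in the count table. Slc25a23, a calcium-regulated carrier that exchanges ATP-magnesium for phosphate across the inner mitochondrial membrane, averaged 68.5 ± 8.57 CPM in MKO and 60.8 ± 8.94 CPM in Ctrl libraries, and 141 ± 8.09 CPM in TKO and 65.5 ± 7.86 CPM in DKO libraries (SD, n = 6 each). Its log2 ratio was 0.64 ± 0.12 (edgeR adjusted p = 0.00435), 0.17 between MKO and Ctrl and 1.11 between TKO and DKO, with an adjusted p of 0.00161 for the difference. Myl3, the ventricular essential myosin light chain, had a log2 ratio of -0.55 ± 0.15 (adjusted p = 0.0353) and lost its call without Ctrl 4, MKO 6, DKO 2, TKO 1, TKO 4, TKO 5 or TKO 6. Hook2, which links cargo to the dynein motor, had one of -0.34 ± 0.09 (adjusted p = 0.0404), which was called in 8 of the 24 fits that left out 1 library. It was named only for its box.

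Among 43 sarcomere genes, 0 were called higher and 3 lower by edgeR, 6.98% against 3.35% of all genes (7 higher and 13 lower at an unadjusted p under 0.05, 3 higher and 7 lower by DESeq2, 3 higher and 7 lower by voom). These were Tnnc1, Myl3 and Trim55, a ubiquitin ligase of the M-band also known as MuRF2, which averaged 110 ± 10.4 CPM in MKO and 133 ± 8.86 CPM in Ctrl libraries, and 83.3 ± 9.04 CPM in TKO and 104 ± 12.5 CPM in DKO libraries (SD, n = 6 each; log2 ratio -0.30 ± 0.06, adjusted p = 0.00917 by edgeR). The median log2 ratio of the list was -0.06, with -0.19 between MKO and Ctrl and 0 between TKO and DKO. Of 43 costamere and intercalated disc genes, 4 were called higher and 1, Itgb1bp2, lower (11.6% called), and the median was 0.16. The rises of Lmo7 and Sorbs2 were lost in 15 of the 24 fits that left out 1 library, and that of Synm only without DKO 2 (adjusted p = 0.0531).

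Genes of excitation were called in both directions. Of 42 ion channel genes, 2 were called higher and 2 lower (9.52%, against 3.35% of all genes), and all 4 were called in every fit that left out 1 library. Clcn1, the muscle chloride channel, averaged 3.31 ± 1.34 CPM in MKO and 6.45 ± 2.76 CPM in Ctrl libraries, and 2.36 ± 0.872 CPM in TKO and 6.75 ± 2.04 CPM in DKO libraries (SD, n = 6 each; log2 ratio -1.23 ± 0.22, edgeR adjusted p = 0.00422). Kcne1l, a potassium channel accessory subunit also called Kcne5, averaged 0.544 ± 0.179 CPM in MKO and 0.5 ± 0.335 CPM in Ctrl libraries, and 19 ± 10.8 CPM in TKO and 1.72 ± 0.842 CPM in DKO libraries. Its log2 ratio of 2.54 ± 0.47 over both genotypes came from 0.15 between MKO and Ctrl and 3.40 between TKO and DKO. Cacna1g, the T-type calcium channel of the fetal heart and the conduction system, rose by 0.51 ± 0.11 on the log2 scale. Of 33 calcium handling genes, only Camk2g, the gamma subunit of the calmodulin-dependent kinase, was called by edgeR (3.03%), at -0.45 ± 0.11 (adjusted p = 0.0211). DESeq2 called 3 of the 33 lower and voom 2, and neither called any higher. At an unadjusted p under 0.05 edgeR found 5 lower and 1 higher.

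Receptor and G protein signalling genes held 6 rises and 0 falls among 41 tested (14.6% called, against 3.35% of all genes). At an unadjusted p under 0.05, 12 were higher and 1 lower. DESeq2 and voom each called 6 higher and 0 lower. Grk5, the kinase that phosphorylates and quiets activated receptors, averaged 9.53 ± 1.94 CPM in MKO and 6.74 ± 1.61 CPM in Ctrl libraries, and 25.6 ± 3.01 CPM in TKO and 14.8 ± 3.18 CPM in DKO libraries (SD, n = 6 each; log2 ratio 0.66 ± 0.12, edgeR adjusted p = 0.00353). Adcy6, one of the main adenylyl cyclases of the cardiomyocyte, averaged 155 ± 18.4 CPM in MKO and 134 ± 12.1 CPM in Ctrl libraries, and 196 ± 17 CPM in TKO and 136 ± 16.1 CPM in DKO libraries (log2 ratio 0.37 ± 0.07, adjusted p = 0.00674). These 2 and Gnao1 were called in all 24 fits that left out 1 library, and the rise of the adenosine receptor gene Adora1 in 10. The median of the list, 0.02, lay near that of all genes, and 20 of the 41 genes had the same sign in both genotypes, against 58.8% of all genes.

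In the list of PEA3 factors and feedback inhibitors of ERK signalling, 3 of 22 were called higher (13.6%, against 3.35% of all genes) and 0 lower (0 lower at an unadjusted p under 0.05, by DESeq2 or by voom). Beside Etv5 these were Fgfr1, a fibroblast growth factor receptor, and Spry4, a Sprouty inhibitor of the same pathway. The median log2 ratio of the list was 0.22 over both genotypes, 0.22 between MKO and Ctrl and 0.17 between TKO and DKO. The same sign in both genotypes was found in 13 of the 22 genes, near the 58.8% of all genes. In the fit of 22 libraries it was found in 11 of the 22 genes. Fgfr1 averaged 17.1 ± 1.97 CPM in MKO and 14.8 ± 0.848 CPM in Ctrl libraries, and 28.9 ± 11 CPM in TKO and 14 ± 2.59 CPM in DKO libraries (SD, n = 6 each; log2 ratio 0.63 ± 0.14, edgeR adjusted p = 0.0154). Spry4 averaged 15.9 ± 2.13 CPM in MKO and 11.5 ± 5.65 CPM in Ctrl libraries, and 33.2 ± 9.36 CPM in TKO and 15.9 ± 4.9 CPM in DKO libraries (log2 ratio 0.77 ± 0.18, adjusted p = 0.0211). All 3 were called in every fit that left out 1 library.

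Fetal and stress genes, which the loaded heart re-expresses, held 6 called rises among 30 tested (20%, against 3.35% of all genes) and 0 falls. At an unadjusted p under 0.05, 11 were higher and 4 lower. DESeq2 called 7 higher and 2 lower, and voom 9 higher and 0 lower. Among the 6 called rises, Edn3 and Rcan1 had log2 ratios of opposite sign in the 2 genotypes. The same sign was found in 19 of the 30 genes, against 58.8% of all genes. Their median log2 ratio was 0.40 over both genotypes, but 0.01 between MKO and Ctrl and 0.57 between TKO and DKO. Tgfb2, a transforming growth factor beta ligand, averaged 12.8 ± 1.26 CPM in MKO and 12.4 ± 2.35 CPM in Ctrl libraries, and 38.8 ± 9.43 CPM in TKO and 16 ± 2.01 CPM in DKO libraries (SD, n = 6 each). Its log2 ratio over both genotypes was 0.69 ± 0.16 (edgeR adjusted p = 0.0214), and the adjusted p of the difference between genotypes was 0.00392. Only Tgfb2 and Cacna1g of the 6 were called in all 24 fits that left out 1 library, and 5 of the 30 genes had a called difference between genotypes. The 24 immediate early genes, which respond within minutes to stimuli such as cell isolation, had a median log2 ratio of -0.29 with 19 of 24 negative, and of -0.15 with 16 of 24 negative in the fit of 22 libraries. None of them was called by edgeR (6 lower and 1 higher at an unadjusted p under 0.05, 1 lower by DESeq2 and 1 by voom).

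Genes of energy metabolism had small ratios. All 63 oxidative phosphorylation genes tested had a negative log2 ratio over both genotypes, between -0.42 and -0.03 with a median of -0.27, whereas 6570 of 12281 genes were negative overall. The median was -0.15 between MKO and Ctrl and -0.38 between TKO and DKO, and 62 of the 63 had the same sign in both genotypes. None was called by edgeR (lowest adjusted p 0.0548, for the Rieske protein gene Uqcrfs1), 44 had an unadjusted p under 0.05, and DESeq2 called 4 and voom 6, all lower. The summed level of the 63 genes was 56200 to 69100 CPM in MKO libraries (median 63600) and 59400 to 79100 CPM in Ctrl libraries (median 66700), and 48400 to 60700 CPM in TKO libraries (median 53300) and 56800 to 119000 CPM in DKO libraries (median 61600). The virus groups overlapped in both genotypes. In the fit of 22 libraries, without DKO 1 and Ctrl 3, 60 of the 63 genes were still negative, but the median was -0.12, and edgeR called 2 of them lower.

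The 43 genes of fatty acid oxidation had a median log2 ratio of -0.15, with 1 called higher (2.33%, against 3.35% of all genes). This was Cpt1a, the enzyme that admits long-chain fatty acids to mitochondria (0.41 ± 0.11, edgeR adjusted p = 0.0319, lost in 9 of the 24 fits that left out 1 library). None was called lower by edgeR, 17 were lower at an unadjusted p under 0.05, and DESeq2 and voom each called 4 lower. Of 26 regulators of metabolism, 2 were called lower (7.69%) and 0 higher (0 higher at an unadjusted p under 0.05, by DESeq2 or by voom). Ppargc1b, the coactivator PGC-1 beta that promotes mitochondrial gene expression, averaged 139 ± 18.2 CPM in MKO and 177 ± 13.1 CPM in Ctrl libraries, and 98 ± 24 CPM in TKO and 134 ± 8.65 CPM in DKO libraries (SD, n = 6 each; log2 ratio -0.40 ± 0.09, adjusted p = 0.0109 by edgeR). Rxrg, a retinoid X receptor, averaged 87.1 ± 13 CPM in MKO and 107 ± 13.8 CPM in Ctrl libraries, and 51 ± 11.8 CPM in TKO and 90.5 ± 22.4 CPM in DKO libraries (log2 ratio -0.56 ± 0.12, adjusted p = 0.0106). Both were called in every fit that left out 1 library. Of 34 glycolysis genes 3 were called higher (8.82%), and only Pgam1, phosphoglycerate mutase, in all 24 such fits (0.48 ± 0.11). Pseudogene copies can share its reads. Among 16 genes of creatine and adenylate energy transfer, Ckm alone was called (6.25%).

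**Figure D4:**
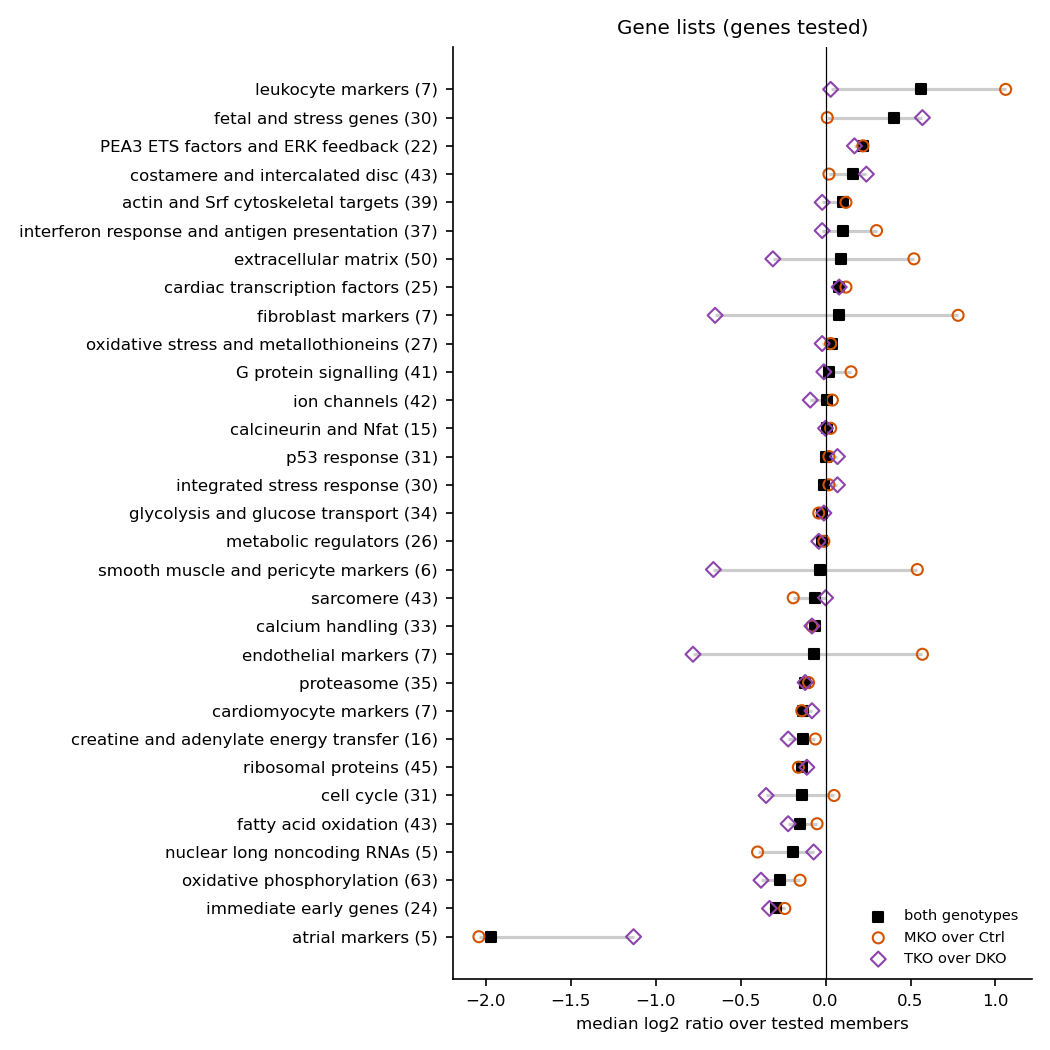
Median log2 ratio of guide virus to Cre virus over the tested members of each gene list, over both genotypes (squares), for MKO over Ctrl (circles) and for TKO over DKO (diamonds), with the number of genes tested. Fibroblast, endothelial, smooth muscle and extracellular matrix lists have positive circles and negative diamonds, while the oxidative phosphorylation list is negative in both.

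Hmox1, haem oxygenase 1, was the only 1 of 27 oxidative stress genes called by edgeR (3.7%) and was called in all 24 fits that left out 1 library (log2 ratio 0.91 ± 0.22, edgeR adjusted p = 0.0259). It averaged 3.28 ± 1.15 CPM in MKO and 1.95 ± 0.596 CPM in Ctrl libraries, and 5.41 ± 1.07 CPM in TKO and 2.49 ± 1.31 CPM in DKO libraries (SD, n = 6 each). Of the 27 genes DESeq2 called 4 higher and 0 lower, and voom 2 higher and 1 lower. At an unadjusted p under 0.05 edgeR found 4 higher and 4 lower. Of 31 genes of the p53 response, which double-strand breaks can set off, 2 were called higher, Xpc, a sensor of DNA lesions, and Bbc3, the cell death protein PUMA, and 1 lower, the growth arrest gene Gadd45a (9.68%, against 3.35% of all genes), and none of these 3 in all of the 24 fits or with 22 libraries. Of 30 integrated stress response genes 2 were called higher (6.67%), likewise not in all of the 24 fits. No gene of the interferon (37 tested), proteasome (35), ribosomal protein (45) or cell cycle (31) lists was called by edgeR, DESeq2 or voom, and at an unadjusted p under 0.05 edgeR found 3, 6, 3 and 0 of them. Of 25 cardiac transcription factor genes only Tbx20 (4%) was called by edgeR (0.56 ± 0.15, adjusted p = 0.0413), in 10 of the 24 fits that left out 1 library. DESeq2 called 2 of the 25 higher and voom 3, and neither called any lower. At an unadjusted p under 0.05 edgeR found 5 higher and 0 lower. Within 10 Mb of Myocd, 6 of 222 genes tested were called (2.7%), near the 3.35% of all genes.

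Markers of other cell types differed in whether their ratios had the same sign in the 2 genotypes. The median of the extracellular matrix list was 0.52 between MKO and Ctrl and -0.31 between TKO and DKO, and 0.09 over both, and 17 of its 50 genes had the same sign in both genotypes. The 7 fibroblast markers tested had medians of 0.78 and -0.65 in the same order, the 7 endothelial markers 0.57 and -0.78, and none of these 14 genes had the same sign in both genotypes. None was called over both genotypes by edgeR, DESeq2 or voom, nor had an unadjusted p under 0.05. The 6 smooth muscle and pericyte markers had medians of 0.54 and -0.66, with 2 of the same sign. The 7 leukocyte markers had medians of 1.06 and 0.03, with 5 of the same sign, 0 called by edgeR, DESeq2 or voom and 3 higher at an unadjusted p under 0.05. The 1 Schwann cell marker tested was negative in both, at -0.50 and -0.15. Of the 50 matrix genes, 3 were called higher (6%, against 3.35% of all genes): Tgfb2, Mmp23 and Thbs4. Mmp23, a membrane-bound metalloproteinase, averaged 2.6 ± 0.451 CPM in MKO and 2.3 ± 1.01 CPM in Ctrl libraries, and 12.9 ± 3.66 CPM in TKO and 4.13 ± 1.26 CPM in DKO libraries (SD, n = 6 each; log2 ratio 1 ± 0.23, adjusted p = 0.0177 by edgeR). The part of other cell types in these levels was not tested, and in sorted bulk samples fewer cells of a type and less RNA per cell cannot be told apart.

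A called pooled ratio did not always stand for both genotypes. The 6 called genes of opposite sign, all higher over both genotypes, were Ankrd45, Krt80, Rcan1, Edn3, Sprr1a and Sema3b. Rcan1, the calcineurin inhibitor whose transcription calcineurin itself drives, averaged 208 ± 16.8 CPM in MKO and 209 ± 38.3 CPM in Ctrl libraries, and 447 ± 103 CPM in TKO and 201 ± 17.7 CPM in DKO libraries (SD, n = 6 each). Its log2 ratio was -0.01 between MKO and Ctrl and 1.16 between TKO and DKO, with an edgeR adjusted p of 0.00171 for the difference. Dync1li1, a light intermediate chain of dynein, was called over both genotypes (0.38 ± 0.09, adjusted p = 0.0236) with log2 ratios of 0.02 between MKO and Ctrl and 0.73 between TKO and DKO (adjusted p of the difference 0.00322). Edn3 and Sprr1a lay under 0.3 CPM on average in MKO and Ctrl, where their ratios rest on few reads, and reached 6.95 ± 5.37 and 2.58 ± 1.54 CPM in TKO libraries, against 0.474 ± 0.369 and 0.22 ± 0.312 CPM in DKO libraries.

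Of the 412 calls, 182 were made in all 24 fits that left out 1 library, 134 higher and 48 lower, and 181 of these had the same sign in both genotypes. The number of genes called ran from 211 without DKO 2 to 586 without DKO 1. It fell more than 1.5-fold short of 412 without MKO 6 (265), DKO 2, DKO 4 (234), DKO 5 (269), TKO 1 (264), TKO 4 (234), TKO 5 (269) or TKO 6 (224). The fit of 22 libraries ended the calls of the named genes Gsn, Cfl1, Xpc, Gadd45a, Bbc3, Pfkp, Tbx20, Thbs4, Sema3b and Hook2. It also moved list medians over both genotypes, which became -0.06 for the extracellular matrix, -0.13 for fibroblast, -0.28 for endothelial and 0.35 for leukocyte markers, 0.13 for the PEA3 and ERK feedback list, -0.03 for the sarcomere and -0.10 for fatty acid oxidation. The median within genotypes was then 0.35 between MKO and Ctrl and -0.41 between TKO and DKO for the matrix list, and 0.59 and -0.78 for fibroblast markers. Over both genotypes the median went from -0.14 to 0.01 for ribosomal proteins, from -0.12 to -0.03 for the proteasome and from 0.10 to 0.01 for interferon genes. That of the cell cycle list went from -0.14 to -0.23. For smooth muscle and pericyte markers it went from -0.03 to -0.17, and for costamere and intercalated disc genes from 0.16 to 0.11.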

How the data were processed

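Polyadenylated RNA was amplified as full-length cDNA and made into libraries with a transposase kit, neither of which marks the strand, per the labels' protocols, so antisense partners cannot be told apart. The whole-number counts per gene were deposited by the authors. The submitters' processing notes name STAR, featureCounts, DESeq2 and the build mm10 without versions. The authors' deposited log2 fold changes and adjusted p-values served only where their tables are named.

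Groups came from the sample titles. Genes passing filterByExpr (minimum count 10) were fitted with edgeR 4.0.16 in R 4.3.3 (TMM scaling, quasi-likelihood test, additive model of Mrtf genotype and virus, Benjamini-Hochberg adjustment), after a check on simulated data. A fit with a coefficient per group gave the effect within each genotype and the difference of effects. CPM use TMM-scaled library sizes. Libraries of the same number deviated together in some pairs (36 pairs, correlation -0.22 to 0.64, median 0.07, 14 over 0.1). The median for other numbers was -0.02. No pairing was used, since the labels do not say that a number marks a shared animal, litter or day. No 2 libraries of a group agreed within sampling noise (chi-square per gene 6.51 to 105 over 60 pairs).

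Named genes were Myocd, Mkl1, Mkl2 and Srf, the 12 largest rises and 12 largest falls under the filters given above, the 6 called genes with the smallest p of the difference between genotypes, up to 4 called members per gene list, called genes of opposite sign, and genes without overlap in both genotypes. The members and lists were chosen with earlier results of these data known. Alternatives were RLE scaling, no filter, DESeq2 1.42.0, voom with quality weights (limma 3.58.1), a replicate block, 22 libraries, no covariate, the mean of the 2 within-genotype effects, a sex covariate, thinned counts and each library left out. The list medians, same-sign shares and counts without overlap in 22 libraries were added after seeing the data.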

Additional observations from a re-analysis of the deposited data

Results flagged for a closer look

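In 9 of 72 groups examined (18 genes in 4 groups), 1 library lay far from the other 5 of its group, which chance gives in about 1 in 20 groups. Of the 9, 5 were DKO 1. Its level was 105 CPM for Srf (the other DKO libraries 52 to 63.6), 63.7 CPM for Cd44 (34.5 to 42.3), 535 CPM for Itgb1bp2 (270 to 321), 22.4 CPM for Arf3 (41.5 to 50.4) and 41.9 CPM for Ptpra (51.7 to 56.9). MKO 6 was apart at 69.7 CPM for Arf3 (other MKO libraries 47.3 to 55.3) and 152 CPM for Dpysl3 (112 to 124), MKO 3 at 85.1 CPM for Kcnip2 (63.8 to 71.4) and DKO 6 at 20.9 CPM for Etv5 (30.1 to 34.2). Cd44, Itgb1bp2, Arf3, Ptpra, Dpysl3, Kcnip2 and Etv5 were called without any one of these libraries.

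The effect of the virus differed between genotypes by the edgeR test of the difference in 15 named genes, and in all 15 the log2 ratio was larger in size in TKO over DKO. The difference of log2 ratios, TKO over DKO minus MKO over Ctrl, was 1.56 for Gnao1, 1.42 for Etv5, 1.41 for Masp1, 1.16 for Rcan1 and 1.24 for Tgfb2. It was 0.93 for Slc25a23, 0.70 for Dync1li1, 1.10 for Fhl1, 0.86 for Sorbs2, 0.74 for Cacna1g and 0.98 for Sulf2, an enzyme that trims sulfate from heparan sulfate. Among genes of opposite sign it was 2 for Ankrd45, 3.55 for Krt80 and 0.80 for Sema3b. For Hs6st2, which adds sulfate to heparan sulfate, it was -1.49, with log2 ratios of -2.32 between TKO and DKO and -0.83 between MKO and Ctrl.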

How the results depend on the processing

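Over both genotypes 412 genes were called (284 higher, 128 lower, 406 of the same sign), with 0 between MKO and Ctrl, 784 between TKO and DKO and 57 for the difference. DESeq2 called 756 (444 higher, 312 lower, 744 of the same sign), with 1 between MKO and Ctrl and 191 for the difference. Voom with quality weights called 869 (551 higher, 318 lower, 853 of the same sign), with 3 between MKO and Ctrl, 1561 between TKO and DKO and 762 for the difference. Without the genotype covariate 100 were called (75 higher, 25 lower, 99 of the same sign), all of them among the 412. Without a filter on low counts 82 were called lower. With sex as a covariate 197 were called lower, 1233 between TKO and DKO and 99 for the difference. With 22 libraries 444 were called, 331 of them among the 412, with 1239 between TKO and DKO and 130 for the difference. RLE scaling called 404, thinned counts 350 and the mean of the within-genotype effects 540. The cause of these differences was not tested.

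Deviations of same-numbered libraries had a median correlation of 0.07, against -0.02 for other numbers. Of 24 libraries, 6 correlated best with one of their own number. The replicate block called 428 genes over both genotypes, 358 of them among the 412, and 175 for the difference.

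Leaving out 1 library gave 211 to 586 calls over both genotypes (149 to 361 higher, 59 to 230 lower, 210 to 579 of the same sign), 0 to 1 between MKO and Ctrl (1 without Ctrl 2), 495 to 1100 between TKO and DKO and 14 to 585 for the difference. The count for the difference left a 1.5-fold range without Ctrl 2 (585), Ctrl 3 (23), Ctrl 4 (24), Ctrl 6 (34), MKO 1 (17), MKO 2 (18), MKO 5 (33), DKO 1 (201), DKO 2 (14), DKO 6 (20), TKO 3 (34), TKO 4 (25) or TKO 6 (30). No named gene changed sign in any of these fits. The median log2 ratio of all genes stayed between -0.03 and 0. Guide virus libraries were deeper on average, and genes under the filter were not tested.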

Other observations

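Several called genes outside the lists code for cell-surface and secreted proteins. They were chosen after their values were seen, and each but Hs2st1, given below, was called in all 24 fits that left out 1 library. Inhba, whose product forms activin A, averaged 1.99 ± 0.908 CPM in MKO and 1.01 ± 0.254 CPM in Ctrl libraries, and 7.05 ± 1.79 CPM in TKO and 1.76 ± 0.954 CPM in DKO libraries (SD, n = 6 each; log2 ratio 1.54 ± 0.24, edgeR adjusted p = 0.00149). Fstl3, a secreted protein that binds activin, had a log2 ratio of 1.08 ± 0.25 (adjusted p = 0.0179).

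Some called genes act on heparan sulfate, and no list of such genes was fixed or counted. Beside Sdc2, the core protein gene Sdc4 had a log2 ratio of 0.75 ± 0.18, Ext1, which extends the chain, 0.52 ± 0.12, and Sulf2 0.71 ± 0.13. Hs6st2 averaged 2.17 ± 0.976 CPM in MKO and 3.85 ± 0.616 CPM in Ctrl libraries, and 0.678 ± 0.171 CPM in TKO and 3.46 ± 0.665 CPM in DKO libraries (log2 ratio -1.50 ± 0.22, edgeR adjusted p = 0.000903). Hs2st1, which also adds sulfate to heparan sulfate, went the other way. It was called higher, with the same sign in both genotypes, and kept its call in 7 of the 24 fits that left out 1 library. Col4a3 and Col4a4, neighbouring basement membrane collagen genes on opposite strands of chromosome 1 whose starts lie next to each other, had log2 ratios of 0.95 ± 0.19 and 1.04 ± 0.21. Vcan, the matrix proteoglycan versican, had 1.09 ± 0.26, with 1.13 between MKO and Ctrl and 1.06 between TKO and DKO, and was not called by voom with quality weights. Ezr and Msn, the ezrin and moesin genes whose products tie actin to the membrane, had 0.37 ± 0.08 and 0.40 ± 0.09. Leukocytes and fibroblasts also make Msn and Vcan, and the part of these cells was not tested.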
